A study of Homo sapiens with 4 samples.

Results

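The genes described here are 32 genes with a moderate level in MDA-MB-231 breast cancer cells and a much lower one in their brain-metastatic counterpart, MDA-MB-231Br. Their mean in MDA-MB-231Br was 0.731% to 14% of that in MDA-MB-231. A gene belonged to the set when its lower normalized read value in the MDAMB231 libraries was at least 100 and at least 6 times its higher value in the MDAMB231Br libraries. Of 15279 named genes in the table, 38 (0.249%) met these values. The choice leaves out 8 genes by name (PDGFRB, GSTP1, S100A4, ADGRF1, GPR176, SORCS2, NGFR and KRT7), of which 6 were among the 38, and this gives the 32. The mirror condition, at least 100 in both MDAMB231Br libraries and at least 6 times the higher MDAMB231 value, was met by 129 genes. Because the members were chosen by the normalized values of both lines, their difference between the lines is described below without any test, and tests are given for genes that did not meet these values.

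The study measured RNA by sequencing in 2 libraries of MDAMB231Br, which the labels give as a brain metastasis of breast cancer, and 2 libraries of MDAMB231, given as breast cancer. MDA-MB-231 is an established triple-negative human breast cancer line with a mesenchymal shape, and MDA-MB-231Br is known as its brain-seeking derivative. Both lines grew without further treatment in DMEM medium with 10% fetal bovine serum and PS, and their RNA was extracted by the mirVana method. The labels state neither how the derivative was made nor whether it is a clone. They also do not say that replicate libraries stem from separate cultures, so each p-value reflects a spread between libraries that may be purely technical. The columns of the table name the line but not the replicate, and the libraries are called A and B in column order as names alone.

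Whole reads recovered from the table came to 25835225 to 30771290 per library. Of the 14424 genes tested with limma-trend, 2079 (14.4%) differed between the lines at an adjusted p under 0.05. Of these, 837 (5.80%) were lower and 1242 (8.61%) were higher in MDAMB231Br, and the median log2 fold change of all tested genes was 0.01. In 29.7% of tested genes the higher MDAMB231Br value lay below the lower MDAMB231 value. The line markers VIM, CD44, EGFR, ZEB1, CAV1, AXL, FOSL1 and MSN were abundant in both lines (3390 or more normalized reads in each library), while the luminal marker ESR1 and the epithelial marker CDH1 reached at most 26.5 and 14.8. ERBB2 (990 and 1233 in MDAMB231Br, 1239 and 955 in MDAMB231), GATA3 and EPCAM were present at modest levels. Of the astrocyte, neuron, endothelial and melanocytic markers, 2 each could be tested, of which MAP2 (neuron) and KDR (endothelial) were higher and the rest not called, and the 7 fibroblast markers were not analysed here. Rows of nuclear pseudogenes of mitochondrial genes took 0.0483% and 0.17% of reads in MDAMB231Br libraries A and B, against 0.0431% and 0.0425% in the MDAMB231 libraries. The part of this gap between the MDAMB231Br libraries in the results below was not tested.

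Cancer cells that colonise the brain must cross the vessel wall and survive among glia and neurons, and sublines selected for this ability often differ from their parent in adhesion, cytoskeletal and signalling genes. Loss of a transcript can come with a closed promoter, with loss of an activating factor or with loss of the gene itself, and RNA levels alone do not separate these. Many silenced promoters in cancer lie in CpG islands, stretches rich in the dinucleotide CG that are unmethylated in most active genes.

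The set held 26 protein-coding genes and 6 non-coding ones by the GENCODE v29 annotation, which names 15.8% of the annotated tested rows as not protein-coding. The non-coding genes were the long intergenic RNAs UCA1, FLJ22447 and AC245041.2, the antisense RNA GATA2-AS1, the processed pseudogene MINOS1P3 and the transcribed pseudogene ZNF542P. They lay on 17 chromosomes. Chromosome 11 held 4 of them (MPZL2, MPZL3, TP53I11 and GRIK4), chromosome 19 also 4 (LRP3, UCA1, ZNF114 and ZNF542P) and chromosome 7 held 3 (LRRC61, ZBED6CL and TSPAN33). Chromosomes 11, 19 and 7 hold 5.47%, 6.90% and 4.81% of the tested genes with a known place. Chromosome 21 held 2 members (LRRC3 and PDE9A) with 0.967% of those genes.

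The promoters of 5 members are shown as examples of CpG-rich and CpG-poor windows, of genes with steep losses (MVB12B and SEC14L6) or with low genes nearby (LRRC61, ARSI, SEC14L6 and ZNF334). RefSeq windows of 250 bases before to 50 bases after an annotated start could be matched by symbol for 19 of the 32 genes. Only 1 start per gene was used, although SERINC2 had 4 listed starts, CDK15 and TP53I11 had 3 each and GRIK4 had 2. Windows at their other starts were not examined. The sequences are given 5′ to 3′ on the strand of the gene, from GRCh38.p14, with each CpG in capitals. MVB12B (chr9:126326579-126326878, plus strand) had 53 CpGs in 300 bases. LRRC61 (chr7:150323105-150323404, plus strand) had 32, ZNF334 (chr20:46513510-46513809, minus strand) had 22 and ARSI (chr5:150302856-150303155, minus strand) had 20. SEC14L6 (chr22:30546692-30546991, minus strand) had 5.
MVB12B: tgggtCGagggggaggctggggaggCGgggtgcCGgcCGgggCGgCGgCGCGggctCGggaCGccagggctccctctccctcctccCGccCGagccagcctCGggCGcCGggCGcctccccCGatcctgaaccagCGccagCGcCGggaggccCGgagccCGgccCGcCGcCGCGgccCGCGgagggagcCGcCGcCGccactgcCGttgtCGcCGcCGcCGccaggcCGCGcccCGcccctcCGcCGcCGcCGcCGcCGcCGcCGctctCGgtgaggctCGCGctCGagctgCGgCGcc
LRRC61: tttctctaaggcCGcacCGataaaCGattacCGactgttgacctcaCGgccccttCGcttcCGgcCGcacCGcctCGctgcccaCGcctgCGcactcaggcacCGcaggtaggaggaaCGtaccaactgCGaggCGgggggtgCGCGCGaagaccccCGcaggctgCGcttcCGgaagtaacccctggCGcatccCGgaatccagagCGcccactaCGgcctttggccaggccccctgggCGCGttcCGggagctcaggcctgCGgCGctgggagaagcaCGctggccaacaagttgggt
ZNF334: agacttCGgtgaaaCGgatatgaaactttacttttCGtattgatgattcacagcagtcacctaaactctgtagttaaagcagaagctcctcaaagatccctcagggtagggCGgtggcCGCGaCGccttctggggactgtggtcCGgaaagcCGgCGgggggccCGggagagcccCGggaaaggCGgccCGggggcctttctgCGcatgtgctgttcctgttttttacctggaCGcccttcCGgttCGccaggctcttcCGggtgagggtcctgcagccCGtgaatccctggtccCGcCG
ARSI: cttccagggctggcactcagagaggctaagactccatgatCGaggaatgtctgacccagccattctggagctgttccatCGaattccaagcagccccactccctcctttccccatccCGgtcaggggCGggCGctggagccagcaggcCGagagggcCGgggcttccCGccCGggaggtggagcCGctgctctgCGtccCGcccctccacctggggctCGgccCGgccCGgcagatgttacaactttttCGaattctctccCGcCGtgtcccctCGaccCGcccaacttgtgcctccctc
SEC14L6: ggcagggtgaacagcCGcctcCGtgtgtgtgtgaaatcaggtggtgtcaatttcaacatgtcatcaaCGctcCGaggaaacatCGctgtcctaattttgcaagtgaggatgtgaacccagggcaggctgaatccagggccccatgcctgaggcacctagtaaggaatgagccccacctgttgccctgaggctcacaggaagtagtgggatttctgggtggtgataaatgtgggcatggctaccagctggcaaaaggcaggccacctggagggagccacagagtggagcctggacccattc

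The observed count of CpG over the count expected from the C and G content was 0.98 for MVB12B, 0.94 for LRRC61, 0.82 for ZNF334, 0.63 for ARSI and 0.22 for SEC14L6. This ratio reached 0.6, a usual limit for a CpG island, in 15 of the 19 windows (78.9%). The share was 83.5% among 10391 tested genes with a window. It was 49.0% among 27305 windows of the whole RefSeq promoter reference, taken at the first listed start. The median ratio was 0.82 in the set and 0.84 among tested genes. At a limit of 0.75 the set had 10 windows (52.6%) and the tested genes 68.3%. Windows below 0.6 belonged to HSPB8 (0.52), SERINC2 (0.23), SEC14L6 (0.22) and CDK15 (0.11), and the highest ratio was that of SERF1B (1.14). For SERINC2 and CDK15, which have several listed starts, the ratio holds for the start used only. Most members with a window thus had a CpG-rich promoter, as most expressed genes did, and the set reached neither limit more often than tested genes.

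Short motifs were searched on both strands of the same windows. The GC box GGGCGG, bound by SP1 and its relatives, was in 13 of 19 windows (68.4%), against 70.5% of tested genes. The TATA box TATAAA was in 1 window, that of CDK15 (5.26%, against 5.57%). The E-box CACCTG, the element that SNAI and ZEB repressors bind, was in 5 windows (26.3%, against 18.2%): those of SEC14L6, TBX1, TSPAN33, ARSI and GATA2-AS1. The AP-1-like pattern TGANTCA, which allows any middle base, was in the window of ZNF334 (5.26%, against 4.58%), where the middle base was T. These are matches of letters in a short window and say nothing on whether a factor is bound.

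**Figure D1:**
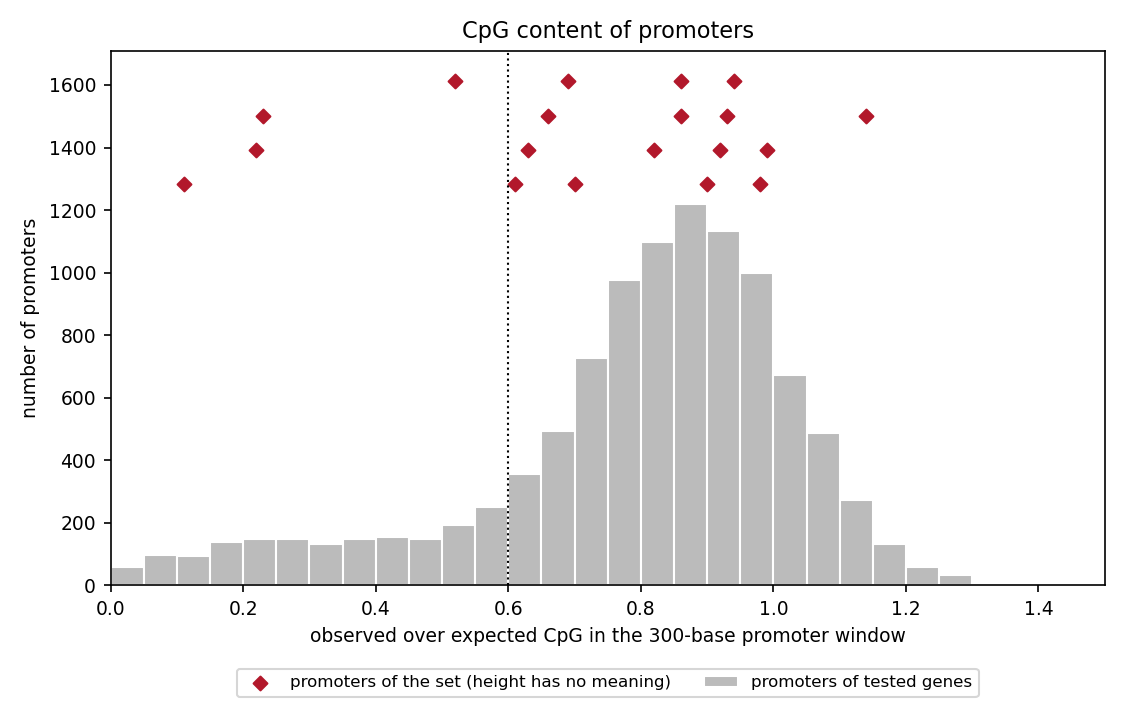
Observed over expected CpG ratio of the 300-base promoter window (x axis), with the number of tested genes per bin as grey bars (y axis) and the 19 matched members as red diamonds whose height has no meaning. The dotted line marks the limit of 0.6, which 15 of the 19 members reached, and the members spread over the same range as the tested genes.

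The word silenced does not describe these genes strictly, because reads were left in MDAMB231Br for each of them. No member had 0 reads in both MDAMB231Br libraries, and TP53I11 and ZNF334 had 0 in library A with 7 and 11 reads in library B. In MDAMB231Br the mean value was a median of 6.02% of the MDAMB231 mean, and it ranged between 0.731% (SEC14L6) and 14% (SERINC2). It was under 5% for 14 members and 10% or more for 5. The whole set summed to 696 and 845 normalized reads in the MDAMB231Br libraries, against 11312 and 11994 in the MDAMB231 libraries. In bulk RNA, fewer cells expressing a gene and less RNA per cell cannot be told apart.

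**Figure D2:**
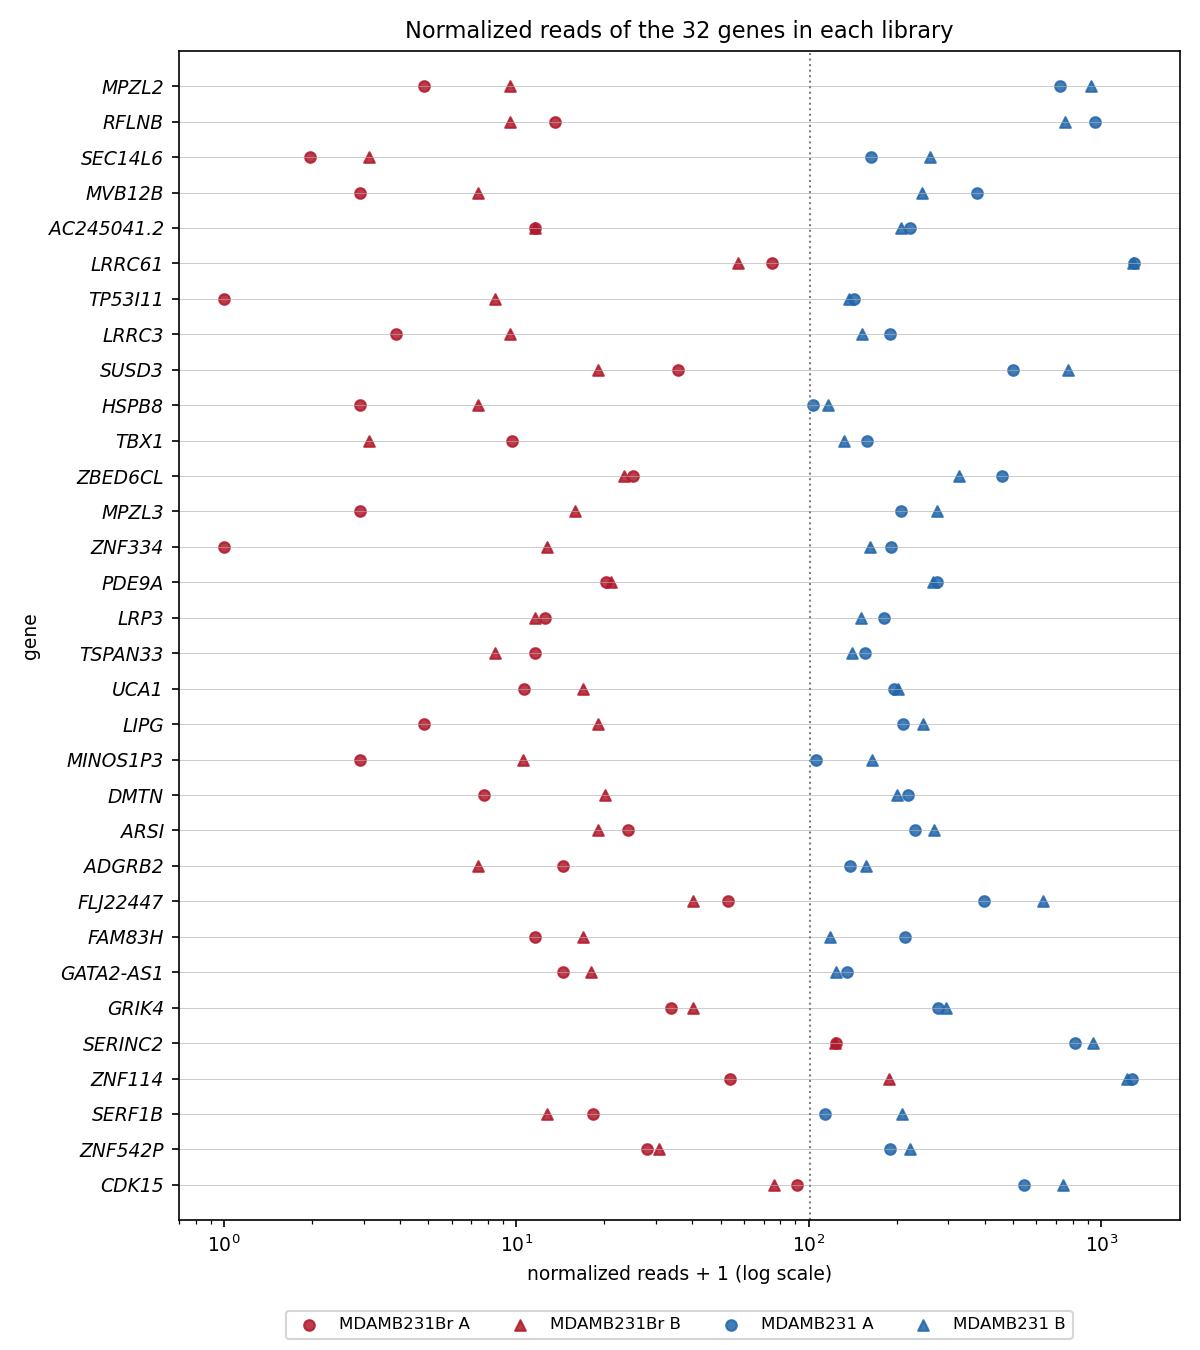
Normalized reads plus 1 on a log axis (x) of each of the 32 genes (y, by falling ratio) in MDAMB231Br libraries (red) and MDAMB231 libraries (blue), with circles for library A and triangles for library B. The dotted line marks the minimum of 100 required in both MDAMB231 libraries, and the red and blue symbols are apart for each gene, as the choice of genes requires.

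Adhesion and membrane proteins included some of the deepest losses. MPZL2, an immunoglobulin-domain protein that mediates contact between epithelial cells, had 3.84 and 8.48 normalized reads in MDAMB231Br, against 722 and 924 in MDAMB231. That is 0.748% of the MDAMB231 mean (95% exact counting interval 0.382% to 1.30%). Its relative MPZL3, whose mutation in mice causes hair loss, had 1.92 and 14.8 in MDAMB231Br, against 206 and 273 in MDAMB231. Both MDAMB231Br libraries were low for both genes, although library B held more MPZL3 than library A. The third member of this small family, MPZL1, a receptor that signals through a tyrosine phosphatase, was abundant and did not pass the test, with 7072 and 7367 normalized reads in MDAMB231Br and 6567 and 6772 in MDAMB231 (log2 fold change 0.11, adjusted p = 0.740). For comparison, 8.61% of all tested genes were higher and 5.80% lower, with a median log2 fold change of 0.01. Among 28 other immunoglobulin-like adhesion genes tested, 6 were higher, 2 lower (BCAM and NPTN) and 20 not called, with a median log2 fold change of 0.16. Higher calls numbered 1 without MDAMB231 library A, 0 without MDAMB231 library B, 11 without MDAMB231Br library A and 7 without MDAMB231Br library B. The neuronal adhesion gene NRCAM rose by 2.18 on the log2 scale (adjusted p = 0.00382), with 297 and 348 in MDAMB231Br, against 71.7 and 68.9 in MDAMB231. EMB, which chaperones lactate transporters, rose by 1.58 (adjusted p = 0.00952).

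SUSD3, a sushi-domain membrane protein known as estrogen-responsive in luminal breast cancer cells, had 34.6 and 18.0 normalized reads in MDAMB231Br, against 500 and 767 in MDAMB231. The gene kept 4.15% of its level (counting interval 3.18% to 5.62%), with the MDAMB231Br libraries 0.521-fold apart (B over A). Of 13 other genes with sushi domains tested, 6 were higher in MDAMB231Br, 0 lower and 7 not called, with a median log2 fold change of 1.10. The shares over all tested genes were 8.61% higher and 5.80% lower, with a median of 0.01. By limma-trend 1 of the 13 was lower at an unadjusted p under 0.05 (14.7% of all tested genes were), and edgeR's quasi-likelihood test and DESeq2 called 0 lower. CSMD1, a complement inhibitor, had 352 and 451 in MDAMB231Br and no read in MDAMB231. It kept its call whichever library was left out (highest adjusted p = 0.000581). SUSD3 also belongs to the list of luminal and hormone receptor genes, where 4 of 16 others were higher and 0 lower (0 by limma-trend at an unadjusted p under 0.05, and 0 by edgeR and DESeq2).

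TSPAN33, a tetraspanin known from red cell precursors and B cells, had 10.6 and 7.42 in MDAMB231Br, against 155 and 139 in MDAMB231. Of 19 other tetraspanins, 1 fell, 2 rose and 16 were not called. TSPAN2 fell by 2.84 on the log2 scale (adjusted p = 0.00210), with 74.9 and 51.9 in MDAMB231Br, against 388 and 531 in MDAMB231. TSPAN1 rose by 2.68 (adjusted p = 0.00392). CD82, a tetraspanin and metastasis suppressor, had 2262 and 3903 in MDAMB231Br and 3040 and 2875 in MDAMB231 (log2 fold change 0.01, adjusted p = 0.990). Single members of this family thus moved in opposite directions while the family median was 0.12.

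LRP3, a receptor of the LDL receptor family, had 11.5 and 10.6 in MDAMB231Br, against 180 and 150 in MDAMB231. Of 8 other LRP receptors tested, LRP4 was lower (log2 fold change -1.58), LRP10 higher (1.02) and 6 were not called. ADGRB2, an adhesion G protein-coupled receptor of the brain-specific angiogenesis inhibitor group, had 13.4 and 6.36 in MDAMB231Br and 137 and 156 in MDAMB231. GRIK4, a subunit of kainate-type glutamate receptors, had 32.7 and 39.2 in MDAMB231Br and 276 and 293 in MDAMB231. It kept 12.6% of its level, and the only other kainate subunit gene with a row, GRIK3, had no read in any library. SERINC2, of a family of membrane proteins tied to serine incorporation into lipids, kept the largest share (123 and 122 in MDAMB231Br, 811 and 938 in MDAMB231). Its relatives SERINC1, SERINC3 and SERINC5 were not called, with log2 fold changes of 0.37, 0.20 and 0.11. LRRC3, a leucine-rich repeat membrane protein, had 2.88 and 8.48 in MDAMB231Br and 189 and 151 in MDAMB231.

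Genes of the cytoskeleton were few but included the steep loss of RFLNB. Refilin B binds filamins and helps them bundle actin fibres around the nucleus. RFLNB had 12.5 and 8.48 normalized reads in MDAMB231Br, against 949 and 749 in MDAMB231, which left 1.23% (counting interval 0.764% to 1.90%). The lower MDAMB231 value was 60 times the higher MDAMB231Br value, a multiple exceeded by MPZL2 (85.1) and SEC14L6 (76.5). Its partner FLNA, filamin A, went the other way and rose by 1.25 on the log2 scale (adjusted p = 0.0222), with 43337 and 54138 in MDAMB231Br, against 24969 and 16573 in MDAMB231. The other 3 filamin genes and partners tested were not called, and the second refilin gene, RFLNA, stayed under 2 in each library. DMTN, dematin, which bundles actin in red cells, had 6.72 and 19.1 in MDAMB231Br and 218 and 200 in MDAMB231. FAM83H, a keratin-organising protein of tooth enamel, had 10.6 and 15.9 in MDAMB231Br and 212 and 117 in MDAMB231. Its relatives FAM83A, FAM83D and FAM83G did not pass the test (lowest adjusted p = 0.190).

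Genes of membrane traffic, lipids and protein quality control followed. MVB12B is a subunit of ESCRT-I, the complex that sorts ubiquitinated receptors into multivesicular bodies. It had 1.92 and 6.36 in MDAMB231Br, against 375 and 242 in MDAMB231, or 1.34% (counting interval 0.554% to 2.55%). MVB12A, the alternative subunit at the same place of the complex, was not called, with 1280 and 596 in MDAMB231Br and 654 and 748 in MDAMB231 (log2 fold change 0.32, adjusted p = 0.578). Of 29 other ESCRT genes tested, 1 was lower (VPS37D), 1 higher (VPS37B) and 27 not called, with a median of 0.01, the same as all tested genes. Lower calls made up 5.80% and higher calls 8.61% of all tested genes. VPS37D and VPS37B, both also ESCRT-I subunits, changed by -1.72 (adjusted p = 0.0495) and 0.89 (adjusted p = 0.0441). MVB12B was thus low in a line where most other ESCRT genes were not called.

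SEC14L6, a predicted carrier of hydrophobic lipids, kept the smallest share of the set, 0.731% (counting interval 0.150% to 2.14%). It had 0.960 and 2.12 in MDAMB231Br, which are 1 and 2 reads, against 162 and 259 in MDAMB231. Its neighbour and relative SEC14L4 fell by 2.63 on the log2 scale (adjusted p = 0.0296), with 2.88 and 9.54 in MDAMB231Br and 38.4 and 38.8 in MDAMB231, while SEC14L1 (-0.49) and SEC14L2 (0.76) were not called. LIPG, endothelial lipase, a phospholipase known to supply lipid precursors to breast cancer cells, had 3.84 and 18.0 in MDAMB231Br and 209 and 245 in MDAMB231. Its tested relative LIPH was not called (log2 fold change 1.01, adjusted p = 0.0525). ARSI, a sulfatase, had 23.0 and 18.0 in MDAMB231Br and 230 and 268 in MDAMB231, and among 7 other arylsulfatases ARSD fell (-1.63), ARSJ rose (1.25) and 5 were not called. HSPB8, a small heat shock protein that works with BAG3 in chaperone-assisted autophagy, had 1.92 and 6.36 in MDAMB231Br and 102 and 115 in MDAMB231. BAG3 was not called, with 3310 and 4000 in MDAMB231Br and 2545 and 1960 in MDAMB231 (log2 fold change 0.70, adjusted p = 0.0884).

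Signalling enzymes were represented by PDE9A and CDK15. PDE9A, a phosphodiesterase that breaks down cyclic GMP, had 19.2 and 20.1 in MDAMB231Br, against 273 and 264 in MDAMB231, with each pair of libraries close together. Of 13 other cyclic nucleotide phosphodiesterases, PDE8B (-1.31) and PDE7B (-1.08) were lower and the other 11 were not called. PDE5A and PDE2A, which also act on cyclic GMP, were among those not called. CDK15, a cyclin-dependent kinase of the PFTAIRE group, had 90.3 and 75.2 in MDAMB231Br and 542 and 737 in MDAMB231. Its relative CDK16 fell by 1.56 (adjusted p = 0.00506), while CDK14 and CDK17 were not called. TP53I11, a p53-induced gene, had 0 and 7.42 in MDAMB231Br and 142 and 136 in MDAMB231.

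Transcription factors in the set were TBX1, ZNF114 and ZNF334. TBX1, a T-box factor of the pharyngeal arches, had 8.64 and 2.12 in MDAMB231Br, against 157 and 131 in MDAMB231. The T-box genes TBX2, TBX3 and TBX20 had at most 1.06 normalized reads in any library, and TBX6 and TBX19 were not called. ZNF334 had 0 and 11.7 in MDAMB231Br and 190 and 161 in MDAMB231. ZNF114 had 52.8 and 187 in MDAMB231Br, against 1273 and 1221 in MDAMB231, and its MDAMB231Br libraries were the widest apart (3.53-fold, B over A) among members with at least 20 reads in one of them. ZNF542P, a zinc finger pseudogene with 26.9 and 29.7 in MDAMB231Br and 188 and 221 in MDAMB231, was evenly low. While 5.80% of all tested genes fell and 8.61% rose, with a median of 0.01, the ZNF genes were counted apart. Of 468 other ZNF genes tested, 27 fell, 32 rose and 409 were not called, with a median of 0.03. The balance depended on the library left out. Without MDAMB231Br library A 47 fell and 100 rose (median 0.22), and without MDAMB231Br library B 92 fell and 43 rose (median -0.18). Without MDAMB231 library A 1 fell and 5 rose, and without MDAMB231 library B 0 fell and 5 rose.

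**Figure D3:**
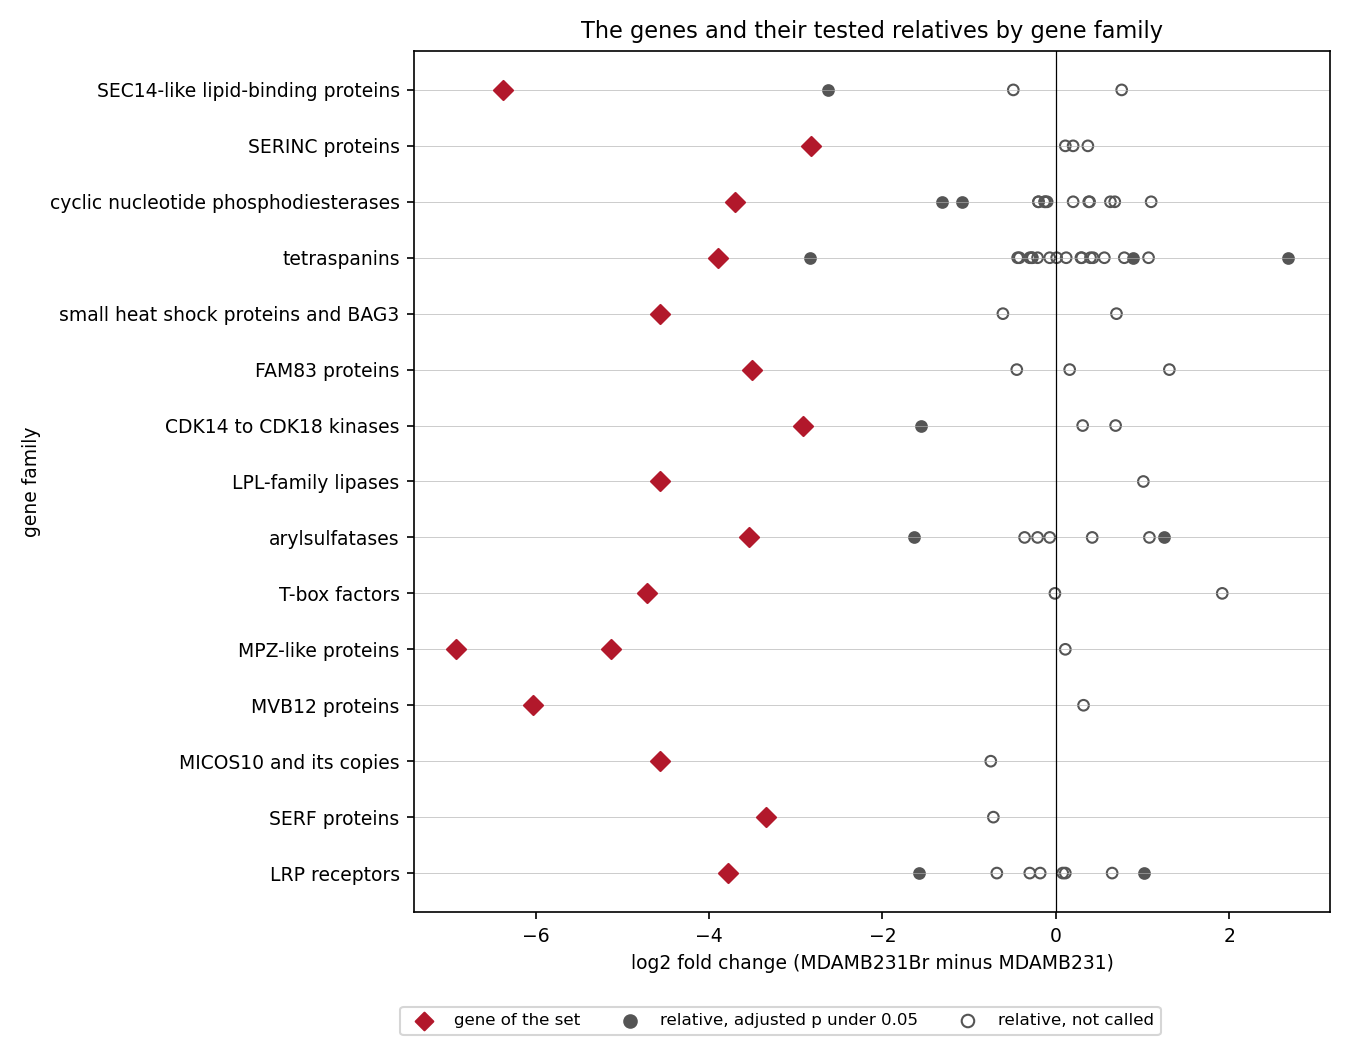
Log2 fold change (MDAMB231Br minus MDAMB231, x axis) of the members (red diamonds) and of tested genes of the same family (circles, filled where the adjusted p was under 0.05), with 1 family per row. The members lie to the left as their choice requires, and most relatives lie around 0. Filled on the lower side are TSPAN2, SEC14L4, ARSD, LRP4, CDK16, PDE8B and PDE7B, and on the higher side TSPAN1, TSPAN6, ARSJ and LRP10.

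Counted over all families, 71 genes of 16 families were tested, of which 8 were lower (11.3%, against 5.80% of all tested genes), 4 higher (5.63%, against 8.61%) and 59 not called. Their median log2 fold change was 0.11, against 0.01 over all tested genes. The families were drawn up by symbol after the members were known. Without MDAMB231 library A the lower calls were 1 and the higher calls 0, and without MDAMB231 library B they were 2 and 1. Without MDAMB231Br library A they were 12 and 15, and without library B 8 and 9.

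The non-coding members include RNAs with near-identical copies or overlapping partners. UCA1, a long non-coding RNA first described in bladder cancer, had 9.60 and 15.9 in MDAMB231Br and 194 and 201 in MDAMB231. FLJ22447, next to HIF1A, had 51.9 and 39.2 in MDAMB231Br and 397 and 630 in MDAMB231. HIF1A itself, the oxygen-regulated factor gene beside it, was not called, with 14615 and 14854 in MDAMB231Br and 14404 and 14813 in MDAMB231 (log2 fold change 0.01, adjusted p = 0.976). AC245041.2 had 10.6 in both MDAMB231Br libraries and 221 and 205 in MDAMB231, and it overlaps AC245041.1 on the same strand. MINOS1P3 (1.92 and 9.54 in MDAMB231Br, 105 and 163 in MDAMB231) is a processed copy of MINOS1, whose own row was not called (log2 fold change -0.75), and reads of the copy and its parent may have been exchanged. SERF1B, with 17.3 and 11.7 in MDAMB231Br and 113 and 208 in MDAMB231, has a near-identical copy, SERF1A, and is uncertain for the same reason. In all, 10 members overlap another row of the annotation by their whole gene spans, and shared exons were not examined. Without a stated strand setting, whether opposite-strand partners share reads was not tested.

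Levels can be compared between genes only per length. Per kilobase of the longest annotated transcript, the highest MDAMB231 means were those of LRRC61 (687 normalized reads per kilobase), MINOS1P3 (660), SUSD3 (530) and ZNF114 (503), and the lowest that of LIPG (21.8). In MDAMB231Br the highest levels left were those of ZNF114 (48.3 per kilobase), SERINC2 (43.6) and LRRC61 (34.7), while SEC14L6 had 0.454 per kilobase.

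**Figure D4:**
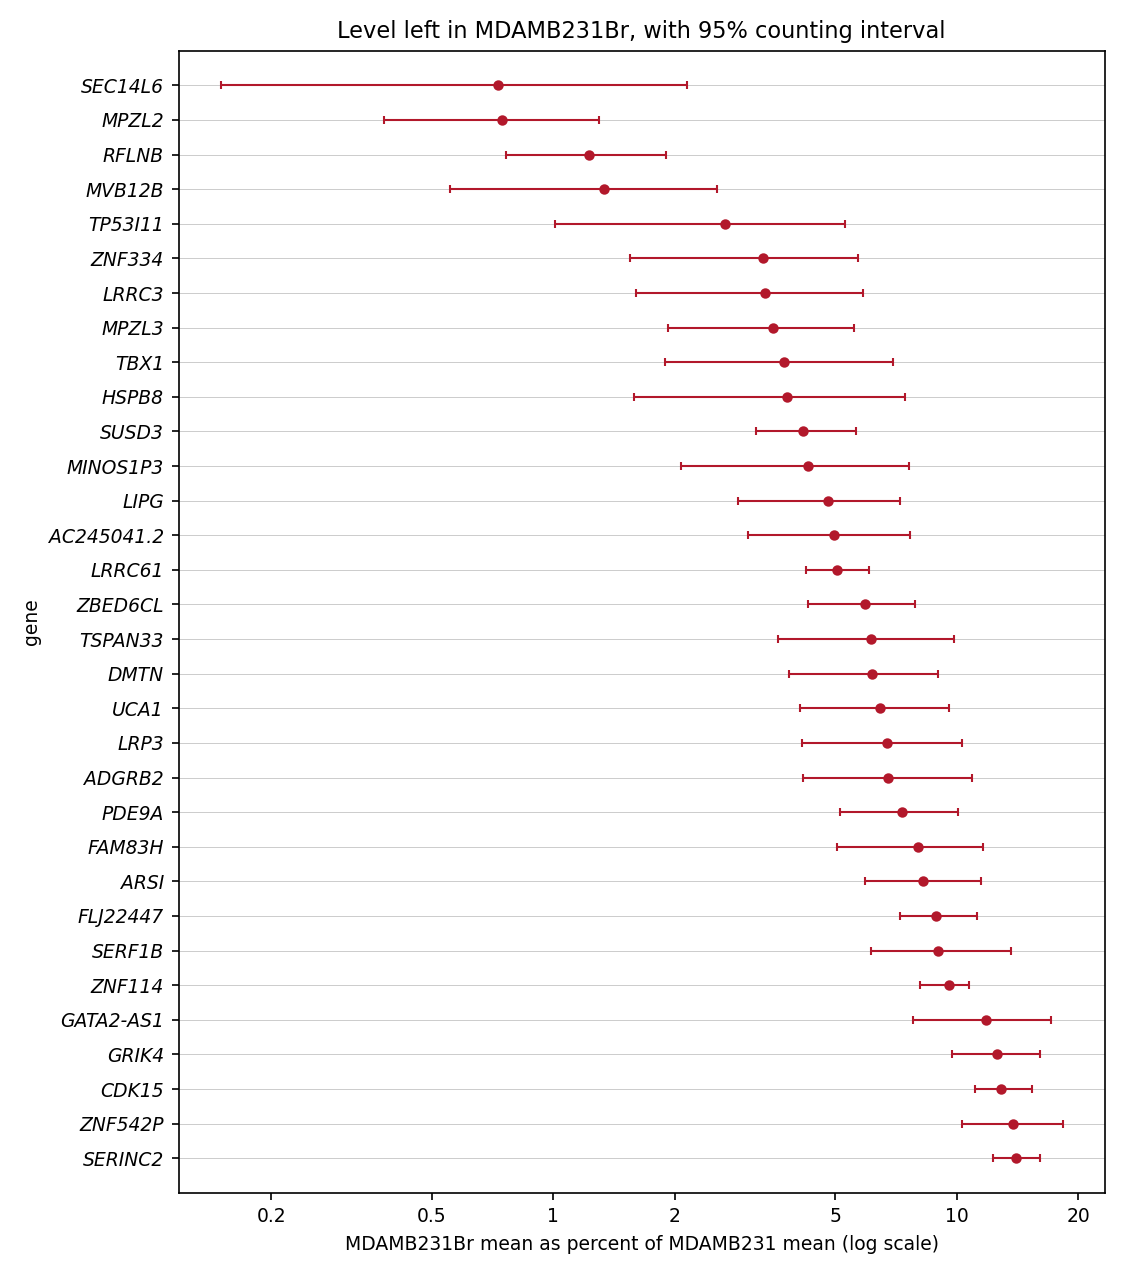
MDAMB231Br mean as a percent of the MDAMB231 mean (x axis, log scale) for each of the 32 genes (y axis), with the exact 95% counting interval of the pooled reads as bars. SEC14L6, MPZL2, RFLNB and MVB12B sit lowest, under 2%, and GATA2-AS1, GRIK4, CDK15, ZNF542P and SERINC2 highest, at 10% or more.

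The intervals cover counting error only. Those of SEC14L6, MPZL2, RFLNB and MVB12B overlap one another, so their order is not settled by these reads, and the same holds for the genes between 3% and 5%. The interval of TP53I11, the next in order (1.01% to 5.28%), overlapped that of MPZL2, which ended at 1.30%. Of the 32 genes, 8 had under 10 reads in both MDAMB231Br libraries. MDAMB231Br libraries were over 2-fold apart for 14 members, with library B above A in 19 and A above B in 13, whereas library B was above A in 50% of all tested genes. The MDAMB231 libraries were closer, with 7 members over 1.5-fold apart and 0 over 2-fold. Library B was above A in 16 of the 32 there.

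The limits of the choice cut through a continuous range. CDK15 (ratio 6), ZNF542P (6.33), ZNF114 (6.55) and SERF1B (6.56) were nearest the ratio of 6 from inside. NLRP2 (5.90), HIC1 (5.75), RHOD (5.75) and IER5L (5.70) were nearest from outside. HSPB8 (lower MDAMB231 value 102), MINOS1P3 (105), SERF1B (113) and FAM83H (117) were nearest the minimum from inside. PCDHB16 (87.9), FIBCD1 (87.9), RADIL (86.3) and HENMT1 (86.2) lay just under it, and HENMT1, which methylates small RNAs of the germ line, had a ratio of 40.7.

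Genes beside the members on the chromosome were counted after those that met the values themselves had been removed. This took out large falls next to members, PDGFRB beside ARSI and the pairs MPZL3 with MPZL2 and LRRC61 with ZBED6CL, so the counts describe what was left. The nearest remaining tested gene on each side gave 60 genes. Of these, 5 were lower in MDAMB231Br (8.33%, against 5.80% of all tested genes), 2 higher (3.33%, against 8.61%) and 53 not called, with a median log2 fold change of -0.04. The log2 fold change was under 0 in 34 of them (56.7%, against 49.1% of all tested genes). Taking the nearest 3 on each side gave 177 genes, of which 11 were lower (6.21%), 6 higher (3.39%) and 160 not called, with a median of -0.02. Of the 60, edgeR called 5 lower and 2 higher (6.48% and 8.96% of all tested genes), and DESeq2 called 3 lower and 4 higher (8.92% and 11.3%). Without MDAMB231 library A or without MDAMB231 library B, 0 of the 60 were called lower, and without MDAMB231Br library A or B the counts were 12 and 10. The 5 nearest genes that fell were ACTR3C, SEC14L4, GATA2, TRPM2 and ZNF582. Among them, ACTR3C, GATA2 and ZNF582 overlap the member itself (LRRC61, GATA2-AS1 and ZNF542P) on the opposite strand. Overlap here means that whole gene spans touch, and shared exons were not examined. Without a stated strand setting, whether their reads were shared with the member was not tested. The opposite-strand partners GNB1L (log2 fold change -0.32), ZSCAN5A (-0.19) and LINC01303 (-1.14) were not called.

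MPZL3 and MPZL2 are next to each other on chromosome 11, and their other neighbours CEP164 (log2 fold change 0.41) and UBE4A (-0.21) were not called. LRRC61 and ZBED6CL, a gene derived from a DNA transposon, are next to each other on chromosome 7 and overlap on the same strand. LRRC61, whose function is little studied, had 73.9 and 56.2 in MDAMB231Br, against 1296 and 1281 in MDAMB231. ZBED6CL had 24.0 and 22.3 in MDAMB231Br, against 455 and 326 in MDAMB231. ACTR3C, an actin-related gene that overlaps LRRC61 on the opposite strand, fell by 2.48 on the log2 scale (adjusted p = 0.00671), with 18.2 and 17.0 in MDAMB231Br and 110 and 96.0 in MDAMB231. REPIN1, a zinc finger gene on the other side, was lower by a smaller amount (-0.96, adjusted p = 0.0359), and ZNF467, further off, was higher (3.05, adjusted p = 0.00740). Beside the pair, ACTR3C and REPIN1 were thus called lower, but AC005586.1, between ZBED6CL and REPIN1, was not called (-0.96, adjusted p = 0.196). The next genes outward, ATP6V0E2 and ZNF775, were not called either.

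ARSI lies beside PDGFRB and close to CSF1R on chromosome 5. PDGFRB, the platelet-derived growth factor receptor gene, itself met the values (15.4 and 31.8 in MDAMB231Br, 753 and 531 in MDAMB231) and was left out by name. CSF1R, the receptor for macrophage colony-stimulating factor, fell by 2.76 on the log2 scale (adjusted p = 0.00338), with 33.6 and 55.1 in MDAMB231Br, against 264 and 338 in MDAMB231. TCOF1, on the far side of ARSI, was not called (-0.35). CSF1R is also 1 of 7 markers of microglia and macrophages looked up, and the other 6 were not analysed here.

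GATA2-AS1 overlaps GATA2, a factor of blood stem cells and of the endothelium, on the opposite strand. The antisense RNA had 13.4 and 17.0 in MDAMB231Br and 134 and 123 in MDAMB231. GATA2 fell by 1.56 on the log2 scale (adjusted p = 0.0135), with 162 and 130 in MDAMB231Br, against 493 and 377 in MDAMB231. GATA3 and GATA6 were not called. At LRRC3 the calcium channel gene TRPM2 was lower (0.960 and 1.06 in MDAMB231Br, 11.1 and 12.6 in MDAMB231, log2 fold change -2.67, adjusted p = 0.0420), at levels of 1 read in each MDAMB231Br library. At ZNF542P the overlapping gene ZNF582 was lower (-2.07, adjusted p = 0.0396), with 5.76 and 5.30 in MDAMB231Br and 26.4 and 26.2 in MDAMB231. CD40, 3 tested genes from ZNF334, fell by 2.59 (adjusted p = 0.00236), with 123 and 207 in MDAMB231Br and 907 and 1022 in MDAMB231, and the glucose transporter gene SLC2A10 on the other side fell by 4.26 (adjusted p = 0.00505), while the genes directly beside ZNF334, ELMO2 and SLC13A3, were not called. The calls of ACTR3C, CSF1R, GATA2, SEC14L4, TRPM2, ZNF582, REPIN1 and SLC2A10 were each lost when 1 of the MDAMB231 libraries was left out (highest adjusted p between 0.0640 and 0.343), and that of CD40 was not (0.0310).

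**Figure D5:**
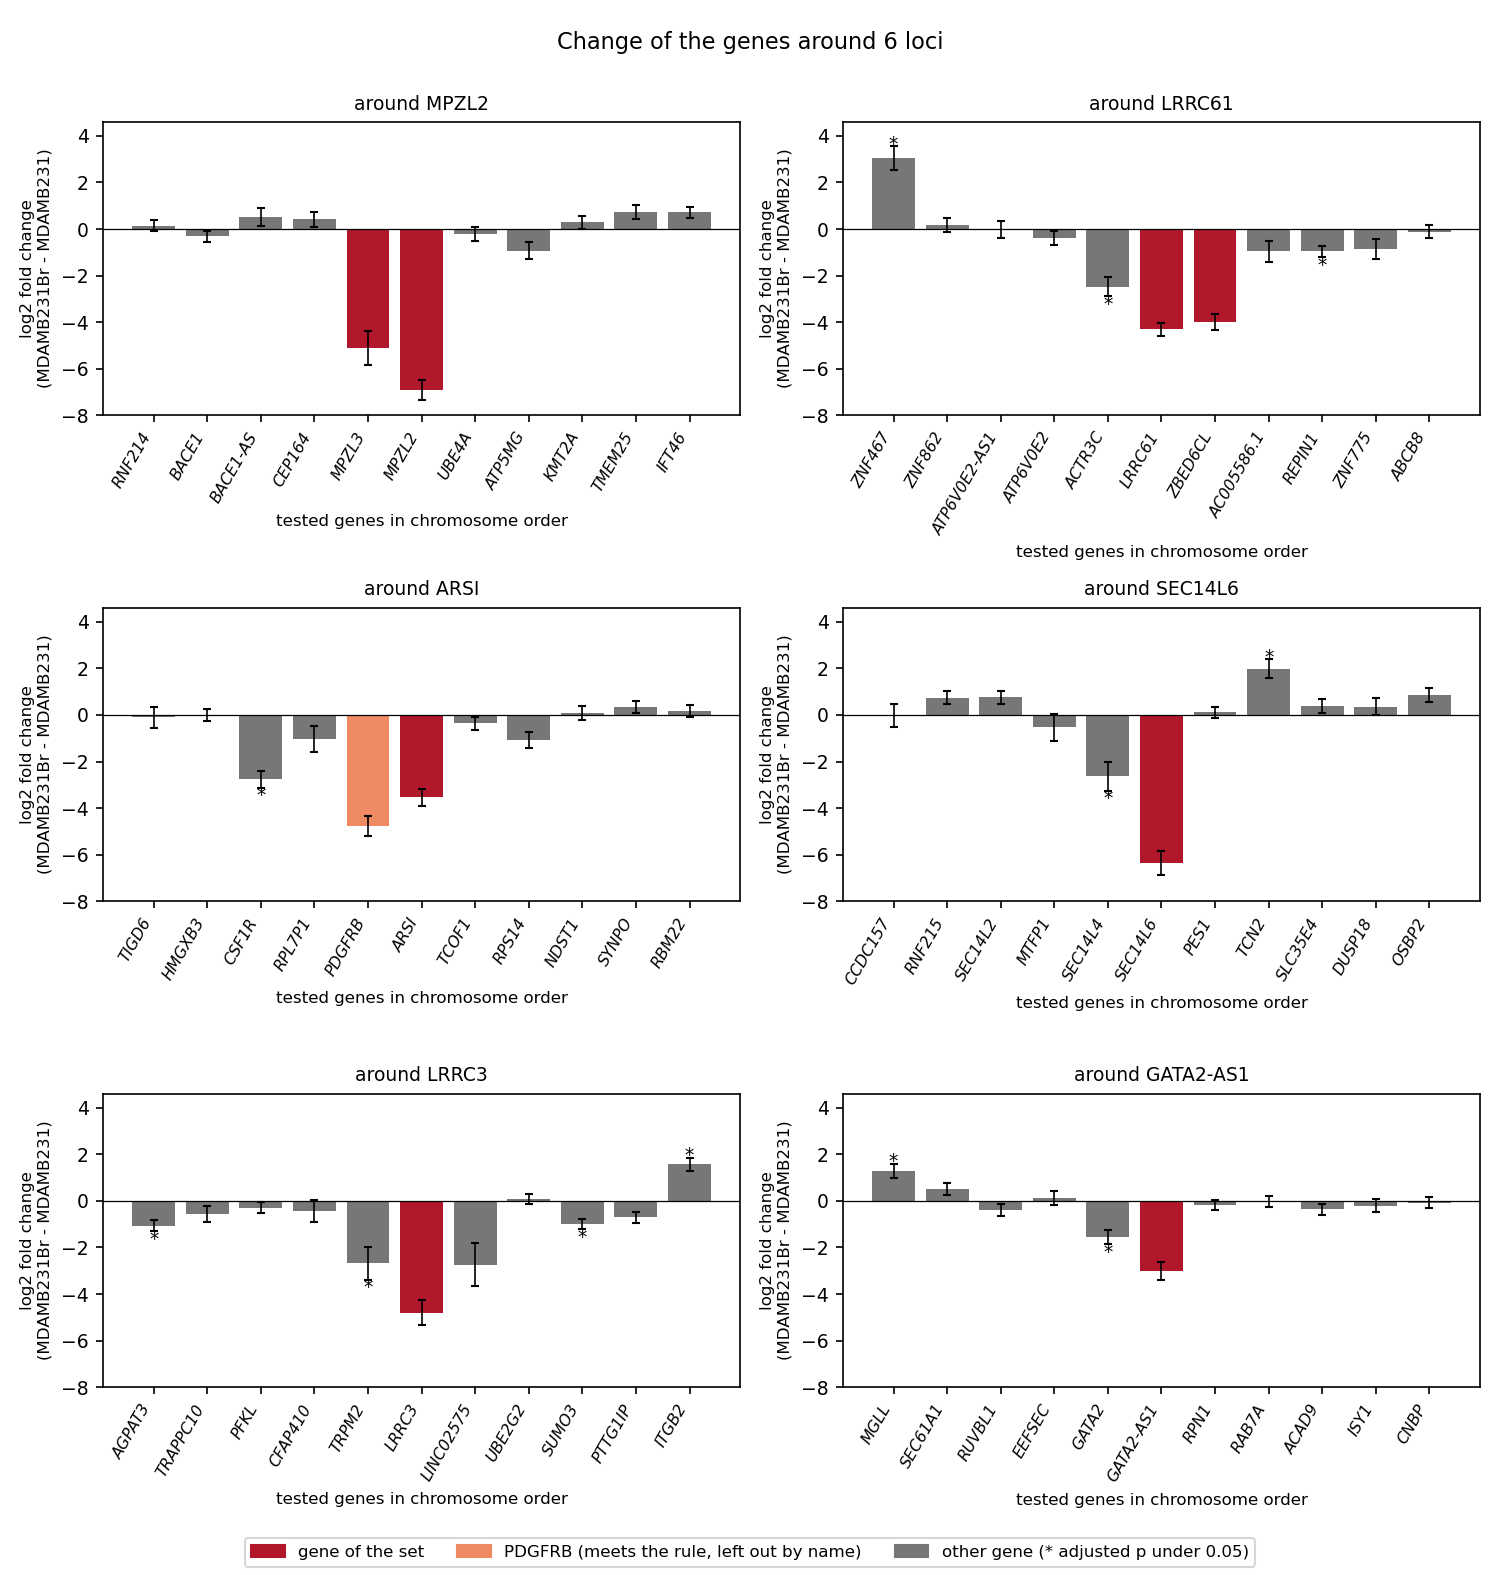
Log2 fold change (MDAMB231Br minus MDAMB231, y axis, with standard error bars) of tested genes in chromosome order (x axis) around 6 members. Red bars are members, the orange bar is PDGFRB and grey bars are other genes, with an asterisk for an adjusted p under 0.05. At MPZL2 and MPZL3 the low values end with the pair, whereas at LRRC61, ARSI, SEC14L6, LRRC3 and GATA2-AS1 a grey neighbour is low as well.

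Genes that write, read or erase chromatin marks were counted because such marks lie on promoters in general. Whether they act on the promoters of the members was not tested. Of 19 genes of DNA methylation, none of them a member, 8 rose, 1 fell and 10 were not called, with a median log2 fold change of 0.85. Over all tested genes 8.61% rose and 5.80% fell, with a median of 0.01. The methyltransferase gene DNMT3B rose by 1.54 (adjusted p = 0.00678), with 846 and 964 in MDAMB231Br, against 312 and 306 in MDAMB231. The demethylase gene TET3 rose by 1.58 (adjusted p = 0.0318), with 952 and 1561 in MDAMB231Br, against 573 and 289 in MDAMB231. ZBTB38, a reader of methylated DNA, fell by 1.35 (adjusted p = 0.00792). A writer and an eraser were thus both higher. The count of 8 depended on the MDAMB231 libraries, being 2 without MDAMB231 library A and 0 without MDAMB231 library B. It was 10 without MDAMB231Br library A and 8 without MDAMB231Br library B. Of 37 Polycomb and H3K9 methylation genes, 2 rose, 2 fell and 33 were not called (median -0.11). The share of members whose promoters were methylated was not measured.

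Several other gene groups held no member, in part because of the genes left out by name. The counts below stand beside 5.80% lower and 8.61% higher among all tested genes, whose median log2 fold change was 0.01. Of genes known to be methylated in breast cancer, 28 were tested, with 5 higher and 2 lower (HIC1 and DLC1), and none was a member, but GSTP1, which met the values and was left out by name, is on this list too. DLC1, a RhoGAP and suppressor of metastasis, fell by 2.40 on the log2 scale (adjusted p = 0.000788), with 487 and 460 in MDAMB231Br, against 2658 and 2349 in MDAMB231. Of 29 metastasis suppressor genes, 2 were higher and 4 lower, again with no member. Epithelial identity genes (4 higher and 2 lower of 32) and mesenchymal genes (8 higher and 5 lower of 22) changed in both directions and held no member, although PDGFRB, left out by name, is on the mesenchymal list. Of 13 clustered protocadherins, which are neuronal adhesion genes, 1 was higher and 3 lower, with a median of -0.99 (-0.57 by edgeR and by DESeq2). The median was 0.00 without MDAMB231Br library A and -1.85 without MDAMB231Br library B. Lower calls numbered 0 without either MDAMB231 library, 3 without MDAMB231Br library A and 10 without MDAMB231Br library B. PCDHB16, just under the minimum of 100, fell by 4.22 (adjusted p = 0.0159), with 0.960 and 12.7 in MDAMB231Br, against 87.9 and 105 in MDAMB231. PCDHB13 fell by 3.53 (adjusted p = 0.00846). Of the called genes that are no members and are given with values here, CSMD1, TSPAN2, CD40 and DLC1 kept their calls whichever library was left out, and the others lost theirs in at least 1 of those 4 fits (highest adjusted p = 0.120 for PCDHB16 and 0.0901 for PCDHB13). Across the 960 distinct tested genes of 28 lists that are no members, 65 were lower and 122 higher, beside 5.80% and 8.61% of all tested genes. Those counts were 10 and 33 without MDAMB231 library A and 6 and 29 without MDAMB231 library B. They were 110 and 270 without MDAMB231Br library A. Without MDAMB231Br library B they were 182 and 157, which turns the balance toward lower calls.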

How the data were processed

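RNA-seq was made from 2 MDAMB231Br and 2 MDAMB231 libraries. Per the submitters' processing notes, the tools were DESeq2, featureCounts and HISAT2, with GRCh37 as the genome. The sources used here give no version, kit, annotation or strand setting. The deposited table holds a normalized read signal per gene. Each column consists of whole multiples of 1 step (0.853 to 1.06), and dividing by it gave whole reads for 100% of values, within a tolerance of 0.01 reads. Rows without a name, 67 of 15346, took 0.0310% to 0.0369% of reads and stayed out, and 20 rows carry dates in place of symbols.

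Low genes were removed with filterByExpr of edgeR (at least 10 recovered reads, total of at least 15), and the others were tested with limma-trend on log2(value + 1), MDAMB231Br minus MDAMB231, with Benjamini-Hochberg adjustment over 14424 genes and a threshold of 0.05. All adjusted p-values are from this test unless another tool is named. Fold changes on this scale understate those of low genes. edgeR's quasi-likelihood test and DESeq2 on the recovered reads were alternatives, and the steps were tested on simulated data. Versions were Python 3.11.15, scipy 1.17.1, DESeq2 1.42.0, edgeR 4.0.16, limma 3.58.1 and R 4.3.3. All 32 members passed the filter, which their MDAMB231 values ensure. The percent left has an exact 95% binomial interval of the pooled reads. Depth was 25835225 to 30771290 reads, and 1 read was 0.853 to 1.06 normalized units by library.

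Gene order, type and length come from GENCODE v29, matched by symbol (15227 rows), and promoters from RefSeq (GRCh38.p14), neither being the build of the files, so no coordinate of the files was used. Members and gene lists were chosen with earlier results of these data known. Members were named by a rule: the 25 with the largest ratio, the 10 highest in MDAMB231, those nearest the limits, those in lists or beside another member, and the 5 with the widest MDAMB231Br spread. Of each list, up to 2 called genes each way could be named. GRIK4, GATA2-AS1 and the family relatives and chromosome neighbours were named after their values were seen.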

Additional observations from a re-analysis of the deposited data

How the results depend on the processing

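With 2 libraries per line, a fit without 1 of them assumes that the lone library varies like the other line. Genes lower in MDAMB231Br, 837 with all libraries, numbered 74 to 2402 without 1 library, 1287 with DESeq2 and 197 without a filter on low values. Genes higher, 1242, numbered 310 to 2855 without 1 library and 389 without a filter. Of the gene lists, 65 lower became 6 to 182 and 122 higher became 29 to 270 without 1 library. The choice gave 50 members at a minimum of 50, 16 at a minimum of 200, 60 at a ratio of 4 and 22 at a ratio of 10. Without 1 library it gave 39 to 65. The sets at a minimum of 200 and at a ratio of 10 lost 16 and 10 of the 32, and each of the others held all 32. The 8 members of the role lists became 15 at a ratio of 4 and 9 to 14 without 1 library. Members without any MDAMB231Br read, 0, were 0 to 2 without 1 library. Nearest neighbours called lower, 5, were 0 to 12 without 1 library, 11 among the nearest 3 and 3 with DESeq2, the last chosen after seeing the data, as were the alternatives on gene families. Their median log2 fold change moved between -0.10 and 0.01. Of 190 alternative values, each scored alone, 115 kept their result, 75 moved and 0 reversed. Such scoring cannot show a turned balance of lower and higher calls, as seen in the gene lists and the ZNF genes. It also counted the neighbour median as kept where that went from -0.04 to 0.01, without MDAMB231Br library A. The cause of these moves was not tested. No paired analysis was possible because the columns carry no replicate number. Depth limits members with few reads: for 8 of them the level left rests on under 10 reads per MDAMB231Br library.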
